A study of Mus musculus with 10 samples.

Results

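Malic enzyme 1 (Me1) and the genes of the glycerol phosphate and malate-aspartate shuttles were compared between livers of wild-type mice and of mice that lack thyroid hormone receptor beta in hepatocytes. The members were taken by name: Me1, Gpd1, Gpd2, Mdh1, Mdh2, Got1, Got2, Slc25a11, Slc25a12 and Slc25a13. All 10 were matched to 1 Ensembl gene identifier each, out of 55401 genes in the count tables, and all 10 passed the filter on low counts. The study sequenced stranded mRNA libraries from the livers of 5 wild-type (WT) mice and 5 Thrb hep-/- mice, with 1 library per mouse; the strain reads C57Bl6/J in the titles and C56Bl6/J in the strain label. Thrb hep-/- mice carry loxP sites at Thrb and a Cre recombinase under the Afp promoter, which is active in the hepatocyte lineage from development on, and the WT mice were their littermates. All mice were kept on standard chow with free access to water and were not treated. Their age, sex and time of collection are not given in the sources used here.

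Cells hold NADH made by glycolysis in the cytosol, and the inner mitochondrial membrane does not let it pass, so its electrons enter by shuttles. In the glycerol phosphate shuttle, cytosolic Gpd1 reduces dihydroxyacetone phosphate to glycerol 3-phosphate and mitochondrial Gpd2 oxidizes it again, handing the electrons to ubiquinone. In the malate-aspartate shuttle, malate dehydrogenases (Mdh1 in the cytosol, Mdh2 in mitochondria) and aspartate aminotransferases (Got1 and Got2) work with a malate carrier (Slc25a11) and an aspartate-glutamate carrier (Slc25a12 or Slc25a13). Me1 is not a shuttle enzyme. It turns cytosolic malate into pyruvate and yields NADPH for lipid synthesis. Me1 and Gpd2 are classical genes induced by thyroid hormone in rodent liver, and thyroid hormone receptor beta is the main receptor of that hormone in hepatocytes.

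Total counts were between 26477195 and 28590704 per library, so that 3 counts correspond to between 0.105 and 0.113 CPM, counts scaled to a common library size, and the 10 genes with the most counts held 18.5% to 21.7% of a library. Values below are normalized CPM, with library sizes scaled by TMM. Thrb itself was at 32.5 to 34.2 in WT and 24.9 to 28.8 in Thrb hep-/- livers, and the genotypes did not overlap (log2 fold change −0.32, SE 0.067, edgeR adjusted p = 0.036). The counts are per gene over all liver cells, and fewer cells of a type and less RNA per cell cannot be told apart in such samples. Hepatocyte genes (Alb, Ttr, Apoa1, Tat, Cps1 and Serpina1a) summed to between 79430 and 119499 normalized CPM in WT and between 94829 and 108019 in Thrb hep-/- livers. Most of each sum was Alb, with means of 74998.5 and 78588 normalized CPM. Of these 6 genes, 0 were called by edgeR, and Ttr was called higher by DESeq2 and limma-voom. Ttr was at 5601 to 6049 normalized CPM in WT and 6553 to 7776 in Thrb hep-/- livers, without overlap. Adipocyte genes (Adipoq, Plin1, Lep, Retn and Cfd) summed to 28.2, 58.0 and 38.9 normalized CPM in Thrb hep-/- replicates 1, 4 and 5, to 0.562 and 0.137 in replicates 2 and 3, and to at most 0.105 in WT libraries, where Adipoq, Plin1 and Lep were at 0 in all 5. Without these 3 libraries, where 2 Thrb hep-/- mice remain, 0 of the 10 genes were called (edgeR), and their log2 fold changes were 0.76 for Me1, 0.13 for Gpd1, −0.0018 for Gpd2, 0.34 for Mdh1, 0.091 for Mdh2, −0.098 for Got1, 0.039 for Got2, 0.10 for Slc25a11, −0.27 for Slc25a12 and 0.30 for Slc25a13. In that fit 173 of the 11944 genes tested were called. An unadjusted p below 0.05 was found there for 4 of the 10 genes (Me1, Mdh1, Slc25a12 and Slc25a13). The share of all genes below it was not counted for that fit, so the 4 cannot be set against a background. Of the markers of other liver cells, 4 of 4 Kupffer genes were below 0 (median log2 fold change −0.72, summed normalized CPM 74.9 to 260.3 in WT and 86.6 to 187 in Thrb hep-/- livers) and 4 of 4 stellate cell genes were above 0 (median 0.26, sums 72.1 to 95.3 and 89.3 to 119), with 0 called in either by edgeR, DESeq2 or limma-voom and 1 in each at an unadjusted p below 0.05 with edgeR. Of 3 leukocyte genes, 1 was tested, Ptprc, with a log2 fold change of −0.55 (edgeR adjusted p = 0.27). Cd3e and Cd79a, too low for the filter, had higher means in Thrb hep-/- livers. Cd3e was at 0.10 normalized CPM in WT and 0.19 in Thrb hep-/- livers, and Cd79a at 0.55 and 0.71. The part of these cells in the results was not tested. The 8 acute-phase genes of the list (Saa1, Saa2, Lcn2, Orm2, Hp, Fga, Fgb and Fgg) had a mean log2 CPM of 9.61 to 12.24 in WT and 7.80 to 9.11 in Thrb hep-/- livers, without overlap. By edgeR 5 of the 8 were called lower (Saa1, Saa2, Lcn2, Orm2 and Hp), against 2.57% of all genes tested. Of 9 clock genes tested, 0 were called by edgeR, DESeq2 or limma-voom, and 1 had an unadjusted p below 0.05 with edgeR. WT replicate 5 had the highest value of the first component of the clock genes, 2.49, against −1.74 to 0.83 in the other 9 libraries.

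Of the 10 genes, Me1 was higher and Slc25a12 was lower in the livers of Thrb hep-/- mice. The threshold was that of the study, an adjusted p below 0.15, and the other 8 were not past it. That is 2 of 10 genes, against 4.08% of the 12234 genes tested (1.51% higher and 2.57% lower). With so few genes, the count was not compared with that share by a test. At an adjusted p below 0.05, 0 of the 10 genes passed with edgeR, 1 with DESeq2 and 1 with limma-voom (Me1 in both), against 1.35%, 4.1% and 2.33% of all genes tested with these tools. At 0.15, DESeq2 and limma-voom each called the same 2 of the 10 genes, against 7.23% and 7.19% of all genes tested. With edgeR, 3 had an unadjusted p below 0.05, against 13.6% of the genes tested. The median log2 fold change of the 10 genes was 0.14, with 8 above and 2 below 0, and that of all genes tested was 0.00054.

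**Figure D1:**
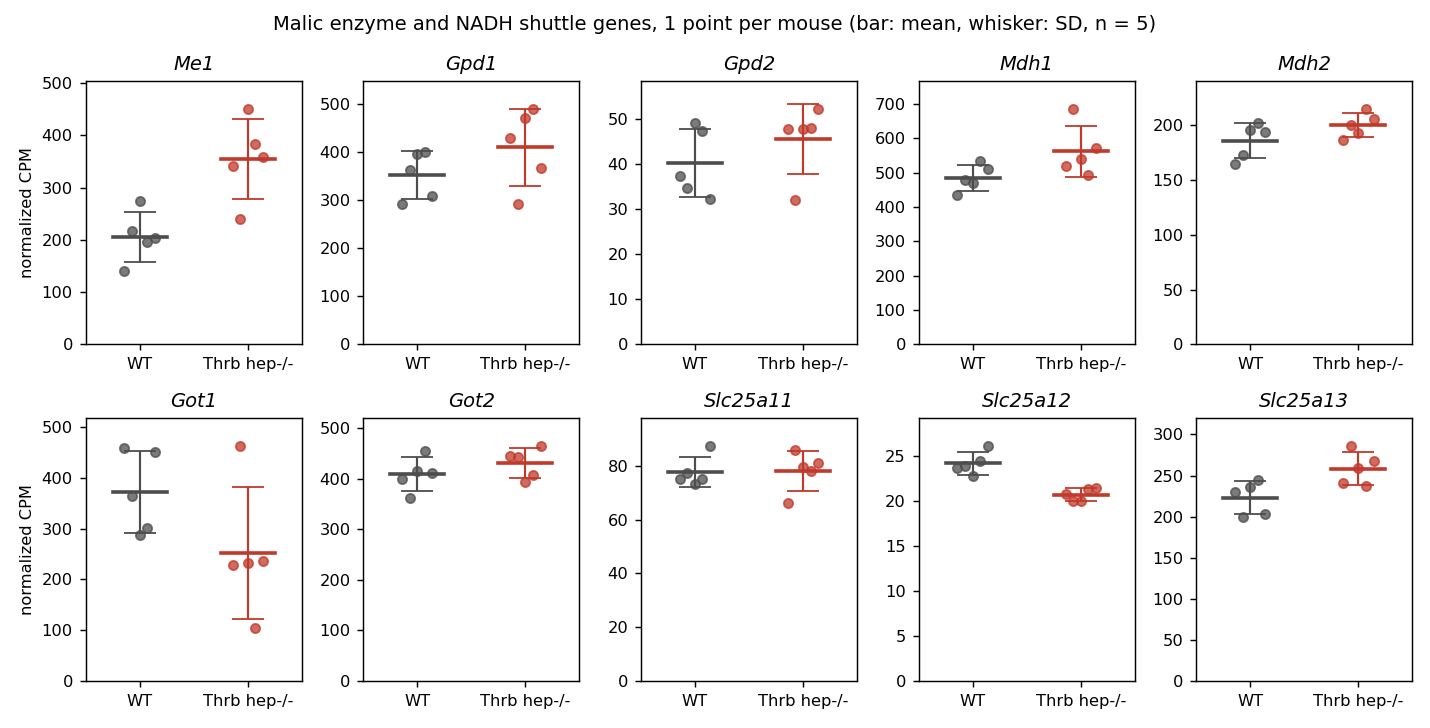
Normalized CPM of the 10 genes in each mouse (points), with the mean (bar) and SD (whisker) of 5 WT and 5 Thrb hep-/- mice; every axis starts at 0. Me1 was at 139.6 to 275 in WT and 240.4 to 450.2 in Thrb hep-/- mice, and Slc25a12 at 22.8 to 26.1 and 19.9 to 21.5.

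Me1 (ENSMUSG00000032418) is found on the minus strand of chromosome 9, between 86581371 and 86695953 of GRCm38, the build of all positions given here. Its normalized CPM were 139.6, 216, 275, 195 and 203 in WT mice 1 to 5. Those of the Thrb hep-/- mice 1 to 5 were 341, 240.4, 450.2, 383 and 359. Thus 4 of the 5 Thrb hep-/- mice were above every WT mouse, and Thrb hep-/- mouse 2 was below WT mouse 3. The WT mean was 206 ± 48.5 and the Thrb hep-/- mean 355 ± 76.2 normalized CPM (SD, n = 5 each), and the fitted ratio was 1.72-fold. The log2 fold change was 0.79, with a standard error of 0.19, a 95% interval from 0.38 to 1.19 and an adjusted p of 0.065 by the quasi-likelihood test of edgeR. This gene, which thyroid hormone is known to induce, was thus at a higher level in the livers with less Thrb.

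The rise of Me1 was of like size without the 3 libraries that held adipocyte RNA, at a log2 fold change of 0.76 with 2 Thrb hep-/- mice left, where it no longer passed (adjusted p = 0.35, edgeR). The Me1 values of those 3 libraries were 341, 383 and 359 normalized CPM, and those of the other 2 Thrb hep-/- libraries 240.4 and 450.2; the part of adipocyte RNA in Me1 was not tested. The call of Me1 was also lost without WT replicate 5 (0.78, adjusted p = 0.153, edgeR) and without Thrb hep-/- replicate 3 (0.69, adjusted p = 0.159, edgeR), and with the clock component as covariate (0.71, adjusted p = 0.163, edgeR). With the mean of the acute-phase genes as covariate it was at 0.35 (adjusted p = 0.9995, edgeR), and in that fit 8 of all genes were called. The acute-phase genes separate the genotypes as well, so that their part in the Me1 difference cannot be told apart from that of the genotype in this fit.

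**Figure D2:**
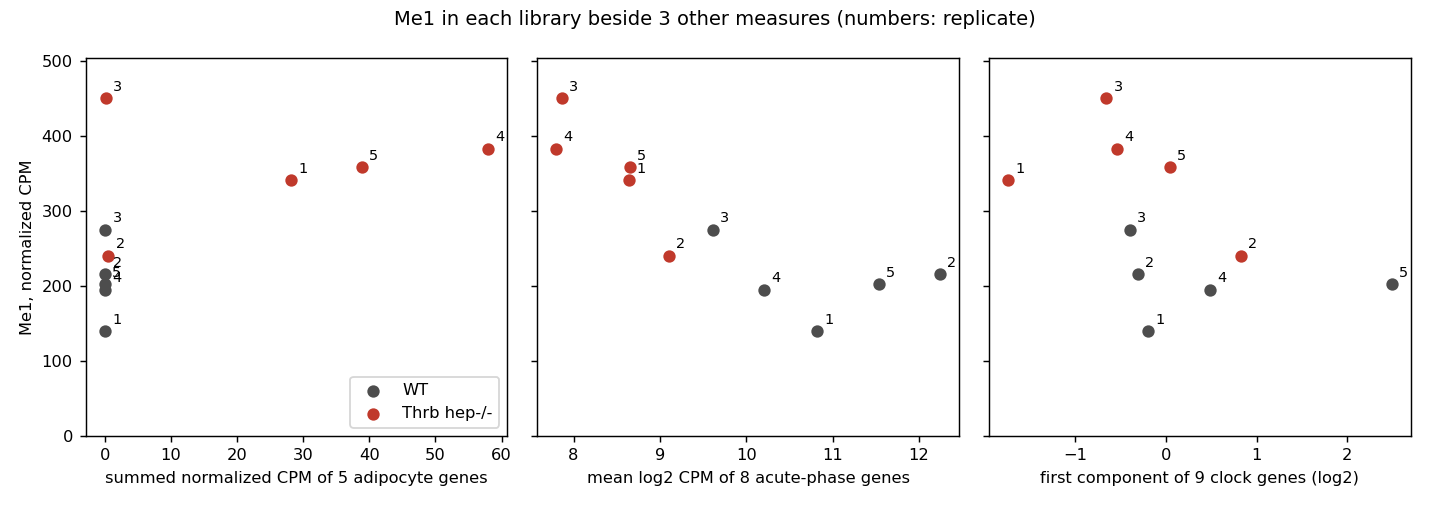
Me1 in normalized CPM (vertical) in each of the 10 libraries beside the summed normalized CPM of 5 adipocyte genes, the mean log2 CPM of 8 acute-phase genes and the first component of the clock genes (horizontal); the numbers are replicates. The 3 Thrb hep-/- libraries with adipocyte sums of 28.2 to 58.0 had Me1 at 341 to 383 and the other 2 at 240.4 and 450.2, and the acute-phase means of the 2 genotypes do not overlap.

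The promoter of Me1 is shown because Me1 had the largest rise, and that of Slc25a12 because it was the 1 gene called lower. Both are RefSeq sequences on GRCm38.p6, and 9 of the 10 genes had such a window (250 bases before to 50 after the start). Me1 has 2 windows in the table, of which the upstream one is shown. The stretches end before the first base of the gene in GENCODE or RefSeq, whichever lies further upstream. Capitals mark AGGNCA, a relaxed half-site of nuclear receptors, and GGGCGG, the GC box, on either strand. The Me1 stretch is chr9:86695954-86696164, the Slc25a12 stretch chr2:71367756-71368005, and both are printed on the minus strand.
Me1: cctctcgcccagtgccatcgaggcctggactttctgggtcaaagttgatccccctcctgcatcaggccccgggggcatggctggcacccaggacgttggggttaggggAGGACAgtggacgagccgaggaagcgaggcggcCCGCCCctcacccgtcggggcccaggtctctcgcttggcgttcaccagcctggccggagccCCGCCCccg
Slc25a12: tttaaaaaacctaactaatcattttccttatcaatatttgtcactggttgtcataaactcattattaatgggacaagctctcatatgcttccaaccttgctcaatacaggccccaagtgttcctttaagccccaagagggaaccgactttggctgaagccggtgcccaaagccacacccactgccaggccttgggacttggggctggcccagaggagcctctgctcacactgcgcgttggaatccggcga
The Me1 stretch held 1 AGGNCA and 2 GC boxes, and the Slc25a12 stretch 0 of either. Both strands were searched. The strict half-site AGGTCA was in none of their full windows, and 16.3% of the 32851 RefSeq windows hold it, while 57.2% hold AGGNCA and 35.7% the GC box. The direct repeat of AGGTCA with 4 bases between is the arrangement that thyroid hormone receptors are best known to bind. It was in 0 of the windows of the 9 genes and in 0.0152% of all. The repeat of AGGNCA with the same spacing was in 0.25% of all windows. Less exact repeats were not searched. In the printed Me1 stretch, AGGACA follows gggtta with 4 bases between (gggttaggggAGGACA), which neither search could find. Binding of a receptor there was not tested. Among the other genes, the windows of Got1 and Got2 held 1 AGGTCA each. The core of the antioxidant response element, TGACNNNGC, was in the upstream Me1 window and in the Mdh1 window, and in 12.4% of all.

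Slc25a12 (ENSMUSG00000027010), on chromosome 2 from 71271063 to 71367749 on the minus strand, encodes aralar, the aspartate-glutamate carrier of brain and muscle, which liver holds in small amounts. It was at 23.6, 23.8, 22.8, 24.5 and 26.1 normalized CPM in WT mice 1 to 5. Thrb hep-/- mice 1 to 5 had 20.8, 19.9, 20.04, 21.4 and 21.5. Every Thrb hep-/- mouse was below every WT mouse. The genotypes did not overlap, counting either direction, for 1 of the 10 genes and for 3.64% of all genes tested. The log2 fold change was −0.22, with a standard error of 0.065, a 95% interval from −0.36 to −0.080 and an adjusted p of 0.133 (edgeR). This call was close to the threshold, and the adjusted p went from 0.051 with DESeq2 to 0.35 without a filter among the fits over all 10 libraries with no covariate. Leaving out 1 mouse at a time, the call was lost in 8 of 10 cases, and the log2 fold change stayed between −0.24 and −0.19.

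Slc25a13 (ENSMUSG00000015112, chromosome 6 from 6041218 to 6217173, minus strand) encodes citrin, the aspartate-glutamate carrier that predominates in liver. It was at 231, 200.1, 236, 245 and 203 normalized CPM in WT mice 1 to 5. The Thrb hep-/- mice 1 to 5 had 241, 286, 259, 238 and 268. The groups overlapped, since Thrb hep-/- mice 1 and 4 were below WT mouse 4. The log2 fold change of 0.21 (standard error 0.088) had an unadjusted p of 0.032 and an adjusted p of 0.32 (edgeR), so Slc25a13 was not called.

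The balance of the 2 carriers differed between the genotypes. The ratio of Slc25a13 to Slc25a12 counts, which does not depend on the scaling of libraries, was 3.20 ± 0.18 (SD, n = 5) on the log2 scale in WT and 3.64 ± 0.14 (SD, n = 5) in Thrb hep-/- livers. The difference of 0.43 had an exact two-sided permutation p of 0.0079, the smallest that 5 mice against 5 allow, and 0.032 when adjusted over the 4 ratios compared. Per countable exon length, Slc25a13 exceeded Slc25a12 by 15.02 to 20.03 times in WT mice and by 21.5 to 27.7 times in Thrb hep-/- mice. Without the 3 libraries with adipocyte genes the difference was 0.57 (exact permutation test over 5 against 2 mice, adjusted p = 0.095), and with medians in place of means it was 0.35 (exact permutation test, adjusted p = 0.19).

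**Figure D3:**
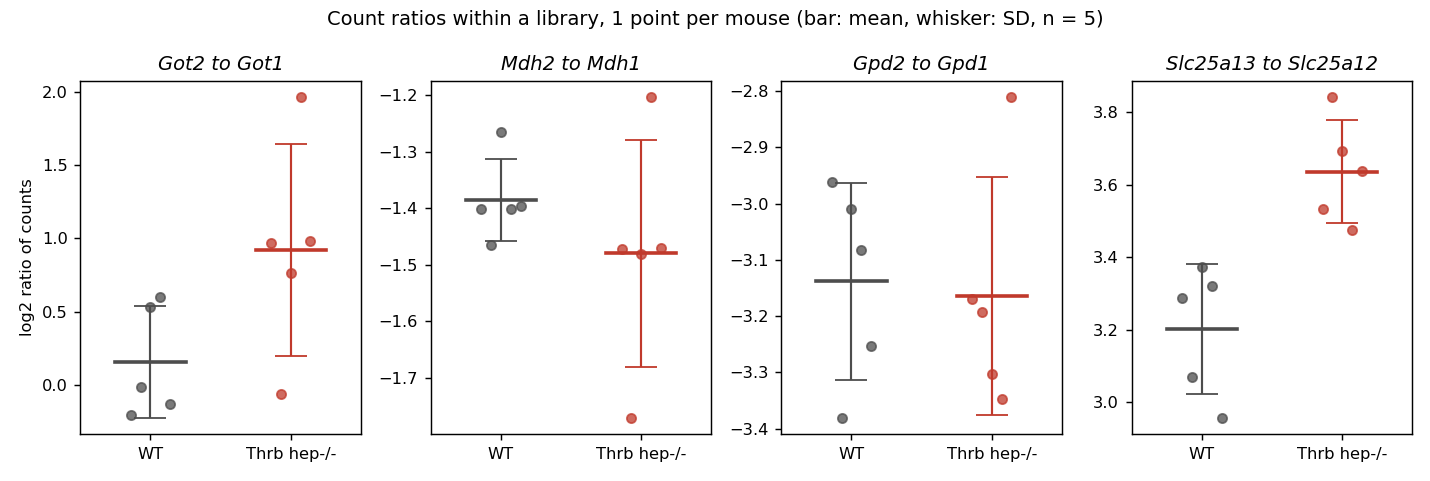
Log2 ratio of the counts of 2 genes within each library (points), with mean (bar) and SD (whisker) of 5 mice per genotype; the axes are log2 and do not start at 0. The ratio of Slc25a13 to Slc25a12 was separate between the genotypes, with means of 3.20 and 3.64, and the other 3 ratios overlapped.

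The aspartate aminotransferases move amino groups between aspartate and glutamate on both sides of the membrane. Cytosolic Got1 (ENSMUSG00000025190, chromosome 19 from 43499752 to 43524605, minus strand) had the widest spread of the 10 genes among Thrb hep-/- mice. It was at 460.2, 366, 287, 301 and 451 normalized CPM in WT mice 1 to 5. The Thrb hep-/- mice 1 to 5 had 228, 463, 232, 104 and 236. Thrb hep-/- mouse 2 had the highest value of all 10 mice, while the other 4 mice of that genotype were below every WT mouse. The log2 fold change was −0.56, with a standard error of 0.32, a 95% interval from −1.28 to 0.16 and an adjusted p of 0.49 (edgeR). The value rested on single mice: it was −0.90 without Thrb hep-/- replicate 2, where it passed the threshold (adjusted p = 0.124, edgeR), and −0.37 without Thrb hep-/- replicate 4 (adjusted p = 0.61, edgeR). Without the 3 libraries with adipocyte genes it was −0.098 (adjusted p = 0.91, edgeR).

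Mitochondrial Got2 (ENSMUSG00000031672, chromosome 8 from 95864134 to 95888547, minus strand) varied little, from 362 to 456 normalized CPM in WT and from 393 to 465 in Thrb hep-/- mice. The estimate for Got2 was 0.074 on the log2 scale, with a 95% interval from −0.12 to 0.26 and an adjusted p of 0.77 (edgeR). The log2 ratio of Got2 to Got1 was 0.16 ± 0.38 (SD, n = 5) in WT and 0.92 ± 0.72 (SD, n = 5) in Thrb hep-/- livers. Its difference of 0.77 did not pass the threshold of 0.05 set for the ratios (exact permutation test, two-sided, p = 0.056, adjusted over the 4 ratios 0.11). The groups overlapped through Thrb hep-/- mouse 2. Without that mouse the difference was 1.01 (exact permutation test, adjusted p = 0.032), and without Thrb hep-/- replicate 4 it was 0.51 (exact permutation test, adjusted p = 0.18). Without the 3 libraries with adipocyte genes it was 0.19 (exact permutation test, adjusted p = 0.52).

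Malate dehydrogenases interconvert malate and oxaloacetate. Mdh1 (ENSMUSG00000020321, chromosome 11 from 21556787 to 21572367, minus strand) was at 436 to 533 normalized CPM in WT mice, with a median of 477. The Thrb hep-/- mice were at 494 to 685, the highest value again in mouse 2. Its log2 fold change was 0.21 (standard error 0.10, 95% interval −0.015 to 0.44, adjusted p = 0.40, edgeR). Mdh2 (ENSMUSG00000019179, chromosome 5 from 135778480 to 135790398, plus strand) was at 165 to 202 normalized CPM in WT and 187 to 215 in Thrb hep-/- mice, a log2 fold change of 0.11 (standard error 0.080, 95% interval −0.066 to 0.28, adjusted p = 0.61, edgeR). The log2 ratio of Mdh2 to Mdh1 was −1.39 ± 0.073 (SD, n = 5) in WT and −1.48 ± 0.20 (SD, n = 5) in the livers of Thrb hep-/- mice. The difference of −0.094 was smaller than the SD between Thrb hep-/- mice (two-sided exact permutation p = 0.32, adjusted 0.42). It was −0.16 without Thrb hep-/- replicate 4 (exact permutation test, adjusted p = 0.032) and −0.022 without Thrb hep-/- replicate 2 (exact permutation test, adjusted p = 0.84). Without the 3 libraries with adipocyte genes it was −0.24 (exact permutation test, adjusted p = 0.095), where 5 against 2 mice allow no smaller unadjusted p.

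The malate carrier Slc25a11 (ENSMUSG00000014606, chromosome 11 from 70644196 to 70647479, minus strand), which exchanges malate for 2-oxoglutarate, was the gene with the smallest difference. It was at 73.2 to 87.5 normalized CPM in WT mice and 66.1 to 85.9 in Thrb hep-/- mice. The estimate was 0.0097 on the log2 scale with a 95% interval from −0.17 to 0.19 (adjusted p = 0.97, edgeR), and its sign changed with single mice left out.

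In the glycerol phosphate shuttle, neither enzyme passed the test. Gpd1 (ENSMUSG00000023019, chromosome 15 from 99717515 to 99725005, plus strand) was at 291, 362, 395, 399.8 and 308 normalized CPM in WT mice 1 to 5. Values of 429, 292, 471, 489 and 365 were found in Thrb hep-/- mice 1 to 5. Here 3 of the 5 Thrb hep-/- mice exceeded every WT mouse, and mouse 2 was among the lowest of all 10. With a log2 fold change of 0.22, Gpd1 was not called (standard error 0.15, 95% interval −0.096 to 0.54, adjusted p = 0.56, edgeR).

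Gpd2 (ENSMUSG00000026827, chromosome 2 from 57237635 to 57370719, plus strand), the other classical thyroid hormone target among the 10 genes, was at 37.3, 34.7, 49.0, 47.2 and 32.3 normalized CPM in WT mice 1 to 5. Its values were 47.7, 31.9, 47.7, 48.0 and 52.1 in Thrb hep-/- mice 1 to 5. Mouse 2 lay far below the other 4 of its genotype and below every WT mouse. Without the 3 libraries with adipocyte genes, where mouse 2 is 1 of the 2 Thrb hep-/- mice left, the log2 fold change was −0.0018. Without mouse 2 it was 0.29 (unadjusted p = 0.035, adjusted p = 0.30, both edgeR). Over all 10 mice Gpd2 was not called, with an estimate of 0.18 on the log2 scale (SE 0.15, 95% interval −0.14 to 0.50, adjusted p = 0.65, edgeR). The interval leaves room for a change of up to 0.50 upwards and 0.14 downwards. The log2 ratio of Gpd2 to Gpd1 was −3.14 ± 0.18 (SD, n = 5) in WT and −3.16 ± 0.21 (SD, n = 5) in Thrb hep-/- livers (difference −0.027, exact permutation test, two-sided, p = 0.83, adjusted 0.83).

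**Figure D4:**
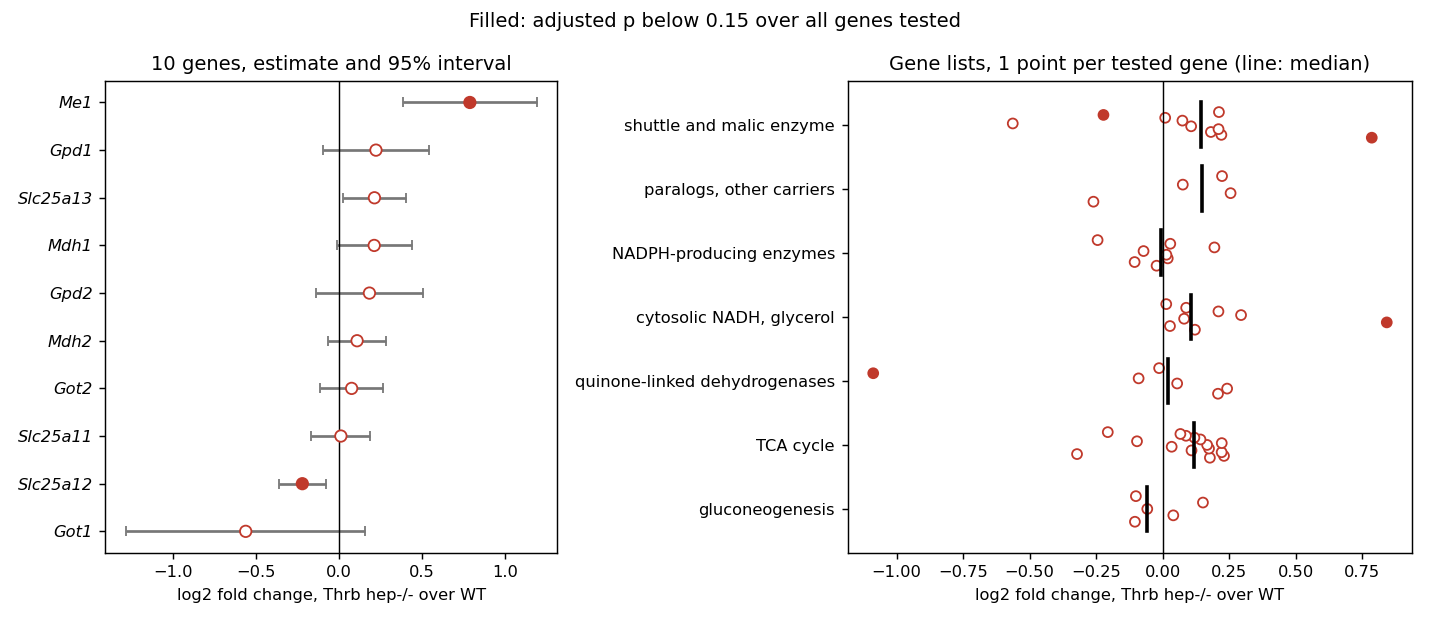
Left, log2 fold change of Thrb hep-/- over WT for the 10 genes with its 95% interval; right, the same estimate for every tested gene of the 10 and of 6 related lists, with the median as a line. Filled points have an adjusted p below 0.15 over all genes tested; Me1 (0.79) and Slc25a12 (−0.22) are the filled points among the 10 genes.

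Levels of different genes were compared per kilobase of the exon sequence that no other gene shares. On this scale of normalized CPM per kilobase, Mdh1 was highest in WT livers, at 193 ± 14.98 (SD, n = 5), followed by Got1 (147 ± 31.9), Gpd1 (136 ± 19.3), Got2 (93.1 ± 7.67), Slc25a13 (58.7 ± 5.34), Me1 (53.9 ± 12.7), Mdh2 (52.2 ± 4.49), Slc25a11 (40.2 ± 2.94), Gpd2 (6.62 ± 1.246) and Slc25a12 (3.29 ± 0.17). In that order, the ranges of the neighbours Mdh1 and Got1, Got1 and Gpd1, Slc25a13 and Me1, and Me1 and Mdh2 overlapped among WT mice. In Thrb hep-/- livers Me1, at 92.9 ± 19.95 (SD, n = 5), stood before Slc25a13 (68.0 ± 5.24), and its range overlapped those of Slc25a13 and of Got2 (98.1 ± 6.73). Gpd1 (159 ± 31.4) stood before Got1 (99.5 ± 51.3) there, and their ranges overlapped, as did those of Got1 and Got2. Both low genes, Gpd2 and Slc25a12, stayed apart from all the others in each genotype.

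**Figure D5:**
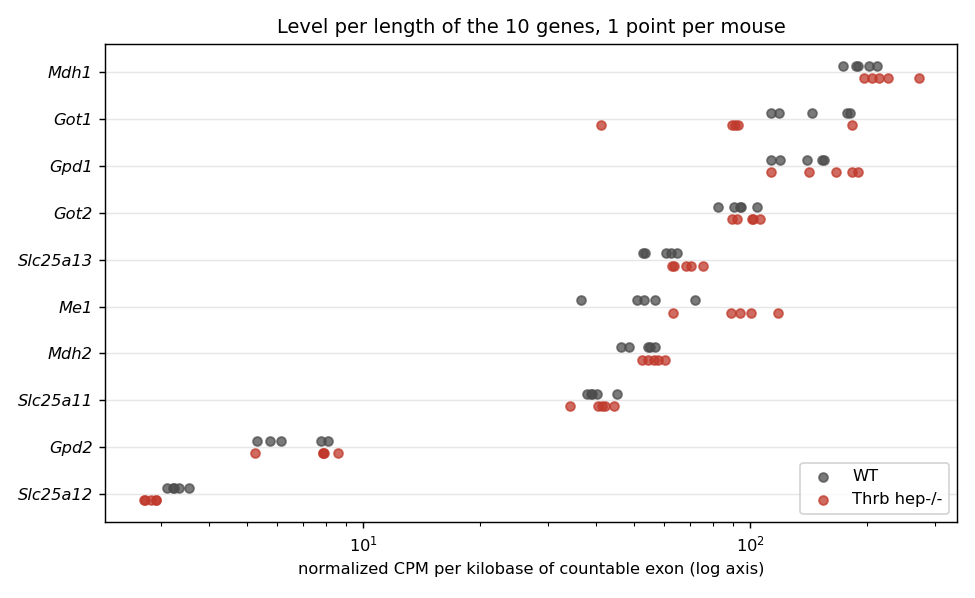
Normalized CPM per kilobase of countable exon (log axis) of the 10 genes in each of 5 WT and 5 Thrb hep-/- mice, ordered by the WT mean. Mdh1 is at the top with a WT mean of 193, and Slc25a12 at the bottom with 3.29; the Me1 points of the Thrb hep-/- mice reach the range of Got2.

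Some pairs of the 10 genes varied together or oppositely among mice. After taking off the mean of each genotype and pooling both, log2 CPM of Me1 and Gpd1 had a Pearson r of 0.80 over the 10 libraries, Gpd1 and Gpd2 of 0.74, and Gpd1 and Got1 of −0.86. These were picked as the most extreme of 45 pairs over the same libraries, of which 24 had an r above 0 and 21 below (median 0.15), and they are given as a description. Of all genes tested, those most like Me1 on this measure were Uso1 (r = 0.96), Gimap8 (0.95), Fyb2 (0.95), Cep350 (0.95) and Aldh3b1 (0.94), and those most like Gpd2 were Ric8b (0.93), Tpp2 (0.92), Aars2 (0.91), Cyp2d41-ps (0.91) and Taf3 (0.90), each over 10 libraries. Their adjusted p for the genotype was between 0.38 and 0.96 (edgeR).

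Genes next to the members in metabolism were described by lists. Of 8 paralogs and other carriers, 4 were tested and 0 were called by edgeR (1 at an unadjusted p below 0.05), with 1 call by DESeq2 and 1 by limma-voom (Gpd1l in both). Slc25a22, a mitochondrial glutamate carrier, was at 319 ± 51.9 (SD, n = 5) in WT and 372 ± 51.7 normalized CPM (SD, n = 5) in Thrb hep-/- livers, and Slc25a10, the dicarboxylate carrier, at 178 ± 11.9 and 187 ± 15.6. The other malic enzymes were at low levels: Me2 was at 1.82 to 2.72 normalized CPM in WT and 1.63 to 2.40 in Thrb hep-/- livers, and Me3 was at or below 0.31 in all libraries.

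Of the 10 genes listed for NADPH production, 9 had a single gene identifier and 8 were tested. Among the 8 is Pgls, which makes no NADPH itself. Of the 8 genes, 0 were called by edgeR, DESeq2 or limma-voom, and 0 had an unadjusted p below 0.05 with edgeR. Their median log2 fold change was −0.0042. The 2 with the highest levels were Aldh1l1, a folate enzyme (1366 ± 304 in WT and 1154 ± 294 normalized CPM in Thrb hep-/- livers, SD, n = 5), and H6pd of the endoplasmic reticulum (664 ± 131 and 670.3 ± 85.8).

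Of 8 genes of cytosolic NADH and glycerol, Ldhb was the 1 called. This lactate dehydrogenase subunit, which liver expresses little, was at 1.29 to 1.48 normalized CPM in WT and 1.76 to 3.68 in Thrb hep-/- livers, without overlap (log2 fold change 0.84, standard error 0.20, adjusted p = 0.070, edgeR). The 3 highest values were those of the libraries with adipocyte genes (2.29, 2.98 and 3.68), and without them its log2 fold change was 0.44 (edgeR adjusted p = 0.42). Sord, which oxidizes sorbitol, was at 1408 ± 201 and 1727 ± 212 normalized CPM (SD, n = 5), and the alcohol dehydrogenase Adh1 at 1359.8 ± 176 and 1438 ± 181 (SD, n = 5).

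Gpd2 is one of several enzymes that pass electrons to ubiquinone. Of 7 others in the list, 6 were tested and Prodh, the proline dehydrogenase, was the 1 called by edgeR. It was at 210.1, 175, 225, 223 and 396 normalized CPM in WT mice 1 to 5 and at 116, 175, 97.5, 85.3 and 104 in Thrb hep-/- mice. It fell by 1.09 on the log2 scale (standard error 0.24, adjusted p = 0.063, edgeR), and Thrb hep-/- mouse 2 reached the level of the lowest WT mouse. Without Thrb hep-/- replicate 3 the value was −1.03 (adjusted p = 0.16), and without the 3 libraries with adipocyte genes −0.85 (adjusted p = 0.41, both edgeR). Sdha, the large subunit of succinate dehydrogenase, was at 449 ± 36.8 and 519 ± 36.2 normalized CPM (SD, n = 5), and Etfdh, which takes electrons from fatty acid oxidation, at 189 ± 23.5 and 224 ± 7.22. Neither passed with edgeR, and both did with DESeq2.

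Of the 15 genes of the TCA cycle, which shares Mdh2 with the shuttle, 0 were called by edgeR. DESeq2 called 2 (Idh3a lower and Idh3b higher) and limma-voom 1 (Fh1, lower), against 7.23% and 7.19% of all genes tested. With edgeR, 6 of the 15 had an unadjusted p below 0.05, against 13.6% of all genes tested. The median log2 fold change of the 15 genes was 0.12, with 12 above and 3 below 0. Ogdh was at 249.7 ± 15.2 and 282 ± 37.0 normalized CPM, and Suclg2 at 235 ± 24.6 and 219.5 ± 21.3 (SD, n = 5). Of the 5 genes of gluconeogenesis from oxaloacetate, 0 were called by edgeR, DESeq2 or limma-voom, and 0 had an unadjusted p below 0.05 with edgeR. Pck1 was at 2877 ± 715 and 2959 ± 691 normalized CPM, and Fbp1 at 1152 ± 37.5 and 1279.9 ± 185 (SD, n = 5).

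Of 4 genes known to respond to thyroid hormone in liver, listed beside Me1 and Gpd2, Dio1 was called. Dio1, which converts thyroid hormone, had 166 ± 25.5 normalized CPM in WT and 20.3 ± 5.06 in Thrb hep-/- livers (SD, n = 5 each). It fell by 3.03 on the log2 scale (edgeR adjusted p = 1.3e-05). Thrsp, a lipogenic gene often induced together with Me1, was at 381, 439.9, 551, 515 and 1899.9 normalized CPM in WT mice and 151, 398, 282, 243 and 487 in the Thrb hep-/- mice. The log2 estimate of −1.28 was not past the threshold (adjusted p = 0.30, edgeR) and was −0.60 without WT replicate 5. Hectd3 (log2 fold change −0.15, adjusted p = 0.35, edgeR) and Klf9 (−0.0058, adjusted p = 0.99, edgeR) did not pass either. All 4 estimates were below 0, with a median of −0.71. An unadjusted p below 0.05 with edgeR was found for 3 of the 4 (Dio1, Thrsp and Hectd3), against 13.6% of the genes tested. Dio1 and Me1 thus differed between the genotypes in opposite directions, and Gpd2 had no detectable difference at this number of mice.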

How the data were processed

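Livers of 5 WT and 5 Thrb hep-/- mice were grouped by the sample titles. The authors mapped reads on mm10 with HISAT2 2.2.1 and counted them on exons of Ensembl release 102 with HTSeq 0.9.1 (union mode, minimum alignment quality 10, no strand, no multi-mapping or ambiguous reads); the deposited values are raw counts per gene. The authors' own edgeR comparison (fold changes, p-values) was not used. Bases shared with overlapping genes (30 in Me1, 487 in Gpd2, 434 in Got2, 384 in Gpd1, 189 in Slc25a11, 52 in Mdh1) give no counts and were taken off gene lengths.

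Counts were fitted with edgeR 4.0.16 in R 4.3.3: at least 1 CPM in at least 5 libraries, TMM, robust quasi-likelihood F-test, Benjamini-Hochberg adjustment over 12234 genes, calls below 0.15 after the study. All adjusted p-values are from this fit unless another tool (DESeq2 1.42.0, limma-voom 3.58.1) is named. The code was tested on simulated data. Ratios were compared by exact permutation, with a threshold of 0.05 on the p adjusted over the 4 ratios. Symbols, coordinates and exon lengths are from GENCODE M21 (GRCm38), another release than that counted on; Choldh and Nnt had no single identifier and have no value. Nothing says that mice of a genotype were from separate litters. The p-values set the genotype difference against the spread between these mice and take the mice as independent. With shared litters they could be too small. Fewer cells of a type and less RNA per cell cannot be told apart. Named were the 10 genes, Thrb, 4 thyroid hormone responsive genes and, per list, the called genes and the 2 with the highest level. Members and lists were chosen with earlier results of these data known. Genes that another tool called were named after their values were seen.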

Additional observations from a re-analysis of the deposited data

Results flagged for a closer look

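In 7 of 130 groups of 5 mice checked, 1 mouse lay far from the other 4, by the gap to its neighbour over the range of the group; chance gives about 6.5. Gpd2 was at 31.9 normalized CPM in Thrb hep-/- replicate 2, against 47.7 to 52.1 in the others of that genotype. In WT replicate 5, Thrsp was at 1899.9 (others 381 to 551), Aldh1l1 at 1891 (others 1144 to 1330) and Prodh at 396 (others 175 to 225), and this library also had the highest clock component. Dld was at 114 in WT replicate 4 (others 96.3 to 99.9) and at 99.2 in Thrb hep-/- replicate 1 (others 116 to 118). Suclg2 was at 257 in Thrb hep-/- replicate 2 (others 206 to 218). No cause was tested.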

How the results depend on the processing

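Of 21 alternatives, Me1 was called in 16 and Slc25a12 in 7, and both kept their direction in all. Calls over all genes (499) numbered 885 by DESeq2 and 880 by limma-voom, 8 under the acute-phase covariate and 173 without the 3 libraries with adipocyte genes, an alternative chosen after seeing the data. Leaving out single mice gave 222 (without Thrb hep-/- replicate 3) to 665 (without Thrb hep-/- replicate 1), with 227 without WT replicate 2 and 239 without WT replicate 5. Calls at 0.05 (165) became 502, 285, 4 and 21 in the same order, 294 with no filter and 86 with the clock covariate, and 75 to 185 with single mice left out. Of the 10 genes, 1 was called with no filter, with filterByExpr and with the replicate block, and 0 with either covariate or without the adipocyte libraries; single mice left out gave 0 to 2, with 0 without WT replicate 5 or Thrb hep-/- replicate 3.

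Thrb was at −0.33 with the acute-phase covariate and at −0.30 without the adipocyte libraries, past the threshold in neither. With the acute-phase covariate, the sign turned for Gpd1 (−0.21), Gpd2 (−0.40), Mdh2 (−0.031), Got1 (0.38), Got2 (−0.0018), Klf9 (0.0027), Slc25a10 (−0.083), Slc25a22 (−0.058), H6pd (−0.14), Aldh1l1 (0.30), Adh1 (−0.12), Suclg2 (0.0044), Pck1 (−0.10) and Nr1d1 (−0.12). It turned without the adipocyte libraries for Gpd2 (−0.0018), Klf9 (0.13) and H6pd (−0.080), with the clock covariate for H6pd (−0.090) and Pck1 (−0.043), with limma-voom for H6pd (−0.026), and with the replicate block for Klf9 (0.0022). Single mice left out gave −0.020 to 0.064 for Slc25a11, −0.11 to 0.078 for Klf9, −0.082 to 0.10 for H6pd and −0.074 to 0.17 for Pck1. The cause was not tested.

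The ratio of Slc25a13 to Slc25a12 differed by 0.35 with medians and by 0.57 without the adipocyte libraries. With single mice left out, that of Got2 to Got1 differed by 0.51 to 1.01, that of Mdh2 to Mdh1 by −0.16 to −0.022 and that of Gpd2 to Gpd1 by −0.12 to 0.019. Same-numbered libraries correlated by −0.20 to 0.0091 in their deviations. These values cannot show whether same-numbered mice were littermates or handled together, and the main fit used no pairing. With the replicate block, 348 genes were called and Slc25a12 had an edgeR adjusted p of 0.27. The carrier ratio then differed by 0.43 (exact sign-flip p = 0.0625, the smallest possible).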
